A study of Mus musculus with 6 samples.

Results

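Collagen crosslinking and hydroxylation enzymes were followed as 10 listed genes, chosen by name: the lysyl oxidases Lox, Loxl1, Loxl2 and Loxl3, the lysyl hydroxylases Plod1, Plod2 and Plod3, and the catalytic alpha subunits of collagen prolyl 4-hydroxylase P4ha1, P4ha2 and P4ha3. All 10 were among the 12235 genes of the table, and all 10 passed the filter that left 9646 genes for testing. RNA came from podoplanin-positive cancer-associated fibroblasts (pCAFs) of mammary tumours. BALB/c females of 8 weeks had received 100000 cells of 4T1, a mouse mammary carcinoma line of BALB/c origin, in the lower left mammary fat pad, and tumours were taken at 1 cm. The labels call the injected line 4T1-GFP in one field and 4T1-luc in another. Sorted cells were negative for Ter119, CD45 and EpCAM, positive for PDPN and either positive (Ly6C+ pCAF, 3 libraries) or negative for Ly6C (Ly6C- pCAF, 3 libraries). No agent other than the tumour cells is named for either group, and no tumour-free group entered the comparison. The labels do not say whether the repetitions are separate mice or pools, so the p-values measure the spread between these libraries, which may be technical.

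Fibrillar collagen is modified inside the cell and again outside it. Prolyl 4-hydroxylase, a tetramer of alpha subunits with the protein disulfide isomerase P4hb, hydroxylates proline and so stabilises the triple helix. Lysyl hydroxylases modify lysine, which sets the type of crosslink that can form. Both kinds of enzyme need iron, oxygen, alpha-ketoglutarate and ascorbate. After secretion, the copper-dependent lysyl oxidases convert lysine and hydroxylysine of collagen and elastin to aldehydes, which then crosslink neighbouring molecules. In tumour stroma these enzymes are known for their part in matrix stiffness.

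The libraries were 3′ end mRNA libraries with 2150531 to 2818269 reads on the genes of the table in the Ly6C+ group and 1176909 to 1721480 in the Ly6C- group. Levels below are the deposited normalised counts, and a value with ± is a group mean with the SD between its 3 libraries. They are compared between groups for 1 gene at a time and not between genes. Log2 fold changes are Ly6C+ minus Ly6C-, from limma on log2(value + 1), a scale that understates the change of low genes, with p-values adjusted over all 9646 genes by Benjamini-Hochberg. Of these genes 17.1% passed at an adjusted p under 0.05, and 55.1% of those that passed had the higher level in Ly6C+ pCAFs. That split was 37.5% when libraries were scaled to their own totals, which shifted the median of all log2 fold changes by −0.19.

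All 7 fibroblast markers had reads in each library, but they were not equal between the groups. Of these 7, 4 were higher in Ly6C+ pCAFs and 3 did not pass (median log2 fold change 1.20). Those higher were Dcn (7360.5 ± 2545 against 1844 ± 415; limma adjusted p = 0.000271), Lum (87.5 ± 43.5 against 16.7 ± 17.4; 0.00940), Pdgfra (519 ± 33.0 against 218 ± 11.9; 0.000192) and the sort marker Pdpn (209 ± 24.1 against 95.4 ± 41.3; 0.00915). Their summed normalised counts, mostly Col1a2, were 38571 to 45423 in the Ly6C+ and 32988 to 40529 in the Ly6C- libraries. Markers of other cells differed as well. The 8 epithelial markers, all in the table, summed to 15.9 to 55.6 in Ly6C+ and 121 to 389.7 in Ly6C- libraries, while Epcam itself was at or below 2.95 in each library. Of 5 tested epithelial markers 2 were lower in Ly6C+ (Krt19 and Krt14) and 3 did not pass. The 9 mural markers summed to 447 to 634 against 1204 to 2197, but they did not all go one way. Of 8 tested, 6 were lower in Ly6C+ pCAFs, Kcnj8 was higher (118 ± 17.03 against 30.1 ± 10.2; limma adjusted p = 0.000367), and Abcc9 did not pass, with 30.1 ± 18.6 against 11.6 ± 4.93 and ranges apart (0.1002). Of 6 granulocyte markers 5 were in the table, at 0 in the Ly6C- libraries and summing to 3.86 to 698 in the Ly6C+ libraries, with the highest sum in Ly6C+ replicate 1. Of 8 macrophage markers 7 were in the table, summing to 95.8 to 319.6 in Ly6C+ and 41.7 to 119 in Ly6C- libraries, with Lyz2 higher and the other 4 tested not passing. Of 7 endothelial markers 4 were in the table, summing to 19.5 to 37.2 against 15.7 to 103, with Tek higher and Kdr lower in Ly6C+ pCAFs. Only Cd3e of 6 lymphocyte markers was in the table, at 88.7 to 165 against 10.5 to 19.7. In sorted bulk samples, fewer cells of a type and less RNA per cell cannot be told apart.

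Of the 10 enzyme genes, Lox was higher and Loxl3 lower in Ly6C+ pCAFs, and 8 did not pass the test. This is 20% of the list beside 17.1% of all tested genes (9.41% higher and 7.66% lower). In DESeq2, 4 of the 10 passed (Lox, Loxl1 and Plod2 higher, Loxl3 lower) beside 16.1% of all genes. The Ly6C+ and Ly6C- ranges were apart for 5 of the 10, or 50% beside 33.1% of all tested genes. Of these, 3 lay higher in Ly6C+ pCAFs (Lox, Loxl1 and P4ha3) beside 17.1% of all genes and 2 lay lower (Loxl3 and Plod3) beside 16.1%. The median log2 fold change of the 10 was 0.05, beside 0.00 for all tested genes, and the median of their absolute values was 0.48 beside 0.36.

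**Figure D1:**
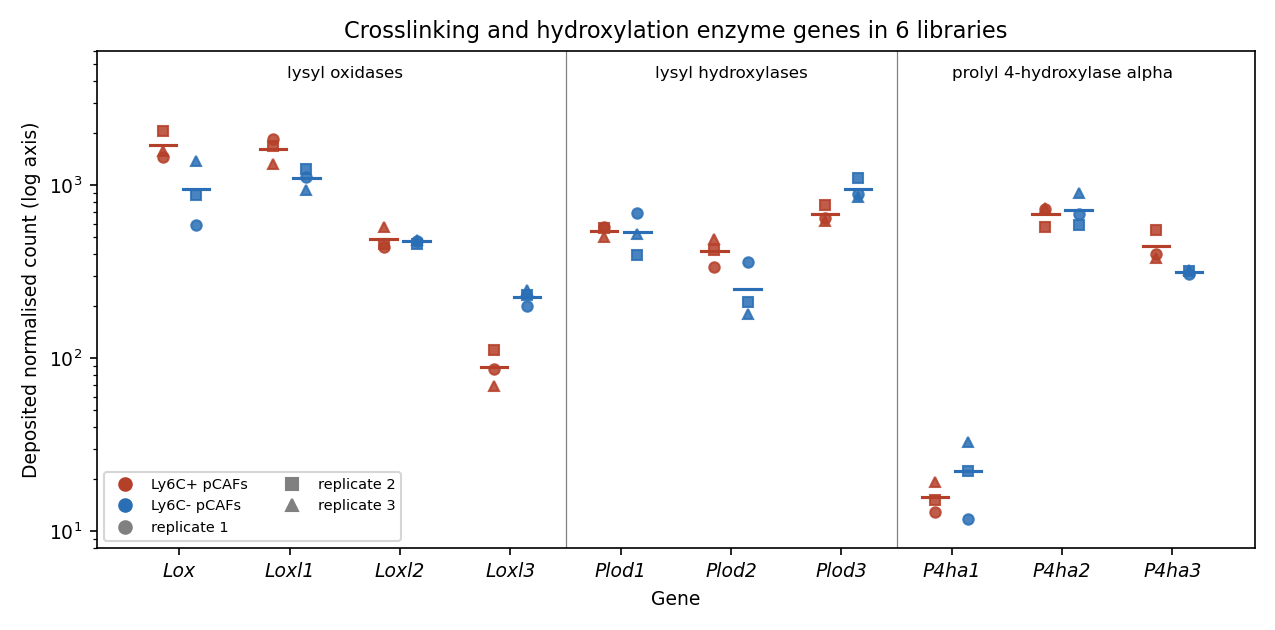
Deposited normalised counts on a log axis for the 10 enzyme genes in each library, with Ly6C+ pCAFs in red, Ly6C- pCAFs in blue, a marker shape per replicate number and bars at group means. Loxl3 shows the widest separation of the groups, at 68.8 to 111 in Ly6C+ and 201 to 249 in Ly6C- libraries, while the points of Loxl2, Plod1, Plod2, P4ha1 and P4ha2 interleave.

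Loxl3, a lysyl oxidase with scavenger receptor domains, had normalised counts of 86.6, 111 and 68.8 in the Ly6C+ libraries, against 201, 232 and 249 in Ly6C- replicates 1 to 3. All 3 Ly6C- values lay above all 3 Ly6C+ values. The means of 88.9 ± 21.3 and 227 ± 24.5 differ 2.56-fold (log2 fold change −1.37, SE 0.21; limma adjusted p = 0.000833). Loxl3 passed in each of 20 alternative settings, with an adjusted p of 0.00782 at the highest, and it ranked 463 by p among the genes tested. Of the tested markers given above, 6 of 8 mural and 2 of 5 epithelial ones were also lower in Ly6C+ libraries, whereas Kcnj8 was higher, and their part in the Loxl3 difference was not tested. Loxl3 lies on mouse chromosome 6, 83034173 to 83052562, plus strand, protein coding (mm10). Its last 500 bases overlap Htra2, a mitochondrial protease gene on the opposite strand, and the strand setting of the counting was not given in the sources used here, so reads of this pair may be divided uncertainly. Htra2 had means of 261 ± 35.2 (Ly6C+) and 230.2 ± 35.0 (Ly6C-), with a log2 fold change of 0.18 that missed the threshold (limma adjusted p = 0.577).

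Loxl2, which shares the scavenger receptor domains of Loxl3, did not follow it. Its normalised counts were 437 to 576 in Ly6C+ and 460.2 to 485 in Ly6C- libraries, so the ranges overlap. The means were 489 ± 75.5 and 474 ± 12.7 (log2 fold change 0.034, 95% interval −0.32 to 0.39; limma adjusted p = 0.925). The longest identical run of the Loxl2 and Loxl3 transcripts is 26 bases, and 9 bases within the last 500 of each, where 3′ libraries draw their reads. The stretch of 60 bases around that run is shown as the place of longest exact identity, and other stretches were not compared for similarity. It lies in exon 11 of each gene, within coding sequence, at chr14:69689063-69689122 for Loxl2 and chr6:83050151-83050210 for Loxl3, both on the plus strand (GENCODE M21, mm10). Capitals mark the 11 bases at which they differ.
Loxl2: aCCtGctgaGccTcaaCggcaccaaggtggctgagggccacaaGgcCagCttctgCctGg
Loxl3: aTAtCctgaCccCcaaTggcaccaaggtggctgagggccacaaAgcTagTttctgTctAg

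Lox, the founding lysyl oxidase, stood at 1463, 2073 and 1573 normalised counts in the Ly6C+ libraries. In the Ly6C- libraries it stood at 592, 877 and 1389.7. The groups did not overlap, but the highest Ly6C- library came close to the lowest Ly6C+ library, and the Ly6C- values spread widely. The means of 1703 ± 325 and 953 ± 404 gave a 1.79-fold higher level in Ly6C+ pCAFs. The log2 fold change was 0.91 (SE 0.27; limma adjusted p = 0.0441). The call ended in 9 of 20 alternatives. Among these were the fits without Ly6C+ replicate 1, 2 or 3 (adjusted p = 0.0829, 0.162 and 0.0836) and without Ly6C- replicate 1 or 2 (0.109 and 0.130), whereas without Ly6C- replicate 3 it was 0.00283. The others were library totals (0.0779), quantile normalization (0.113), no filter (0.128) and no mean-variance trend (0.124). Of the 7 fibroblast markers, the 4 named above were higher in the Ly6C+ group too. Col1a1, Col1a2 and Thy1 did not pass (log2 fold changes −0.089, 0.020 and −0.33). The part of these markers in the Lox difference was not tested.

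Loxl1, the lysyl oxidase known for its part in elastic fibre upkeep, had normalised counts of 1854, 1678 and 1329.8 in the Ly6C+ libraries, against 1124, 1234 and 939 in Ly6C- replicates 1 to 3. The ranges were apart. The means of 1620.4 ± 267 and 1099 ± 149 stood at a ratio of 1.47, but the difference did not pass (log2 fold change 0.56, 95% interval 0.16 to 0.96; limma adjusted p = 0.0605). It passed in 4 of 20 alternatives, among them DESeq2 (adjusted p = 0.0449) and the fit without Ly6C+ replicate 3 (0.0335). Over all 20 the adjusted p ran from 0.0137 to 0.238, the highest after quantile normalization, where the log2 fold change was 0.35. Loxl4, the remaining gene of the family and not one of the 10, was also higher in the Ly6C+ group, with 51.9 ± 13.4 against 22.8 ± 5.34. Its log2 fold change was 1.15 (SE 0.27; limma adjusted p = 0.0127).

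**Figure D2:**
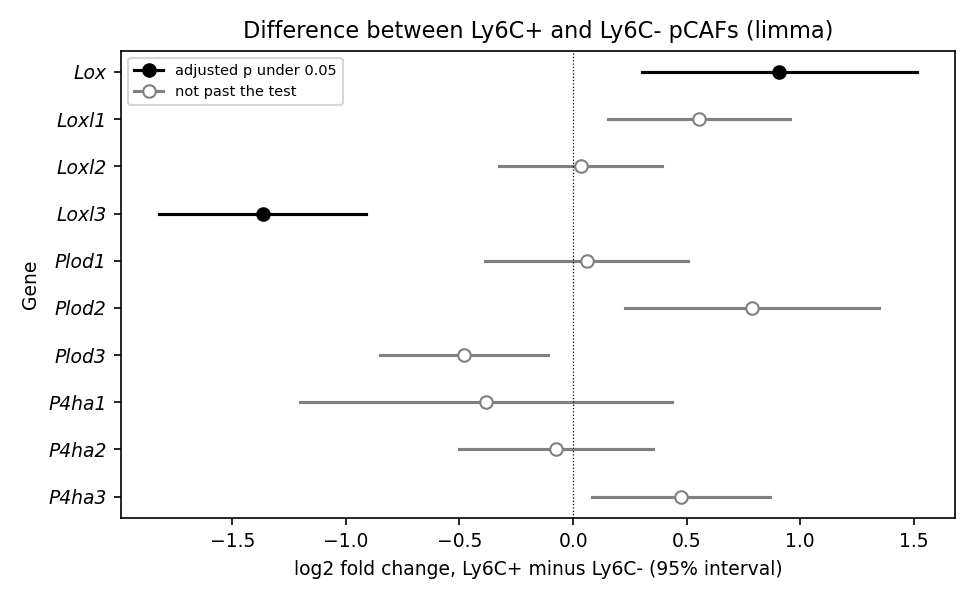
Log2 fold change of each enzyme gene, Ly6C+ minus Ly6C- pCAFs, with its 95% interval from limma; black points passed at an adjusted p under 0.05 and grey open points did not. Lox at 0.91 and Loxl3 at −1.37 are the black points, on opposite sides of 0.

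Among the lysyl hydroxylases, none of 3 passed. Plod2, the enzyme known for hydroxylating the telopeptides of fibrillar collagen, had normalised counts of 337, 425 and 492 in the Ly6C+ libraries, against 359, 211 and 179.6 in Ly6C- replicates 1 to 3. Ly6C- replicate 1 lay above the lowest Ly6C+ library, so the groups overlap. The means were 418 ± 78.0 and 249.9 ± 95.9 (log2 fold change 0.79, 95% interval 0.23 to 1.35; limma adjusted p = 0.0566). It passed in 3 of 20 alternatives, among them the fit without Ly6C- replicate 1 (1.08; adjusted p = 0.00347) and DESeq2 (0.0454). The highest adjusted p was 0.193, without Ly6C- replicate 2 (0.70), and the smallest log2 fold change was 0.58, without Ly6C- replicate 3 (0.140). In the other direction, Plod3, which also carries glycosyltransferase activity towards hydroxylysine, had normalised counts of 649.6, 767 and 624 in the Ly6C+ libraries, against 889.7, 1108 and 859 in Ly6C- replicates 1 to 3. Its ranges were apart, and the means of 680.2 ± 76.0 and 952 ± 136 did not pass the test (log2 fold change −0.48, 95% interval −0.85 to −0.11; limma adjusted p = 0.0772). Plod3 passed where each library was scaled to its own total (−0.68; adjusted p = 0.0163) and after quantile normalization (−0.60; 0.0329), settings in which Lox did not pass. Over 20 alternatives Plod3 passed in 4, with adjusted p-values of 0.0163 to 0.296. Plod1, which hydroxylates lysine in the helical part of collagen, had means of 546 ± 39.0 and 536 ± 147 (log2 fold change 0.060, 95% interval −0.39 to 0.51; limma adjusted p = 0.891). Of its Ly6C- values, 689.9 lay above and 396 below the Ly6C+ range of 501 to 570.3, and 522 lay within it.

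None of the 3 prolyl 4-hydroxylase alpha subunits passed. P4ha3 had normalised counts of 401, 552 and 382 in the Ly6C+ libraries, against 305, 317 and 325 in Ly6C- replicates 1 to 3, without overlap. Its means of 445 ± 93.6 and 316 ± 10.1 gave a log2 fold change of 0.47 (95% interval 0.08 to 0.87; limma adjusted p = 0.0995). P4ha2 overlapped, with 725, 573 and 739 normalised counts in the Ly6C+ libraries against 681, 586 and 898 in Ly6C- replicates 1 to 3 (log2 fold change −0.075, 95% interval −0.50 to 0.35; limma adjusted p = 0.853). P4ha1 rested on few reads, 66 over the Ly6C+ and 63 over the Ly6C- libraries. Its values were 12.8, 15.0 and 19.3 against 11.8, 22.1 and 32.8, and the interval of its log2 fold change ran from −1.20 to 0.43 (limma adjusted p = 0.563), the widest among the 10 genes. P4hb, the partner subunit, had means of 3668 ± 654 (Ly6C+) and 4625 ± 917 (Ly6C-), a log2 fold change of −0.33 that missed the threshold (limma adjusted p = 0.326).

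RefSeq promoter windows (GRCm38.p6), from 250 bases before to 50 after the RefSeq start, were read for 5 of the 10 genes. Lox was not among them. Those of the alpha subunits are shown because P4ha1 and P4ha2 are known targets of hypoxia-inducible factors, whose core motif reads ACGTG or GCGTG. Capitals mark these motifs on either strand, none of which overlaps another. P4ha1 lies at chr10:59323046-59323345, P4ha2 at chr11:54100674-54100973 and P4ha3 at chr7:100285270-100285569, all on the plus strand. The P4ha2 window lies wholly downstream of the GENCODE start of that gene, at 54100095.
P4ha1: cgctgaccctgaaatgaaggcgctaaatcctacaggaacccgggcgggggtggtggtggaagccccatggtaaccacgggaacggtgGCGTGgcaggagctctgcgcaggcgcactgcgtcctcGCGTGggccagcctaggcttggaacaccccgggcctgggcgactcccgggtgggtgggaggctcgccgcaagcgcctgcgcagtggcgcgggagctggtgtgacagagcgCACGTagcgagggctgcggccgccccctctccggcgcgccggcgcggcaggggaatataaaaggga
P4ha2: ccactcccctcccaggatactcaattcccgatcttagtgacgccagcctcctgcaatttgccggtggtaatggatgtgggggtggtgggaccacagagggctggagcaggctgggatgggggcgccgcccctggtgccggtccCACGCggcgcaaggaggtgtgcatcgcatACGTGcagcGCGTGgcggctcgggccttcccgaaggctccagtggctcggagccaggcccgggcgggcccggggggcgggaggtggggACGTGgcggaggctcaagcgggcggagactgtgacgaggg
P4ha3: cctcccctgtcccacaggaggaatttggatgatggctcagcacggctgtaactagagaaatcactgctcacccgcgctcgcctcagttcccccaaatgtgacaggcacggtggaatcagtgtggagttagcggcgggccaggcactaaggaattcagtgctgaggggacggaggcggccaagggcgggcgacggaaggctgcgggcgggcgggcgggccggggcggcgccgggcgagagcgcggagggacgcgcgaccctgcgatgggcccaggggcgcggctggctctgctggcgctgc
The P4ha1 window holds 3 such motifs, the P4ha2 window 4 and the P4ha3 window 0. Of the other windows read, Plod1 holds 2 and Plod3 holds 4. At least 1 of these motifs stands in 43.8% of all 32851 windows in the table and in 63.1% of those of tested genes (both strands).

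Ratios between paralogs within a library, taken as log2((value + 1)/(value + 1)), depend on the scaling of the library only through the added 1. Of 12 pairs within the 3 families, 5 had ratios that did not overlap between the groups: Loxl3 against each of Lox, Loxl1 and Loxl2, and Plod2 against each of Plod1 and Plod3. This is 41.7% of the pairs beside 37.0% of all pairs of tested genes, so the count is near the background. The log2 ratio of Lox to Loxl3 was 4.06, 4.21 and 4.50 in the Ly6C+ libraries, against 1.56, 1.91 and 2.48 in Ly6C- replicates 1 to 3, a 4.84-fold shift towards Lox in Ly6C+ pCAFs. The ratios of Loxl1 and Loxl2 to Loxl3 shifted 3.79-fold and 2.64-fold in the same direction. The log2 ratio of Plod2 to Plod3 was −0.95, −0.85 and −0.34 in the Ly6C+ libraries, against −1.31, −2.39 and −2.25 in Ly6C- replicates 1 to 3, a 2.41-fold shift towards Plod2 in Ly6C+ pCAFs. Each Ly6C+ value of this pair lay above each Ly6C- value, although Plod2 alone overlapped. The ratio of Plod2 to Plod1 shifted 1.66-fold the same way. With 3 libraries against 3, the exact two-sided permutation test cannot give less than p = 0.1, the value of each of these 5 pairs, or 0.24 adjusted over the 12 pairs. The pairs share genes and are not independent of each other.

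**Figure D3:**
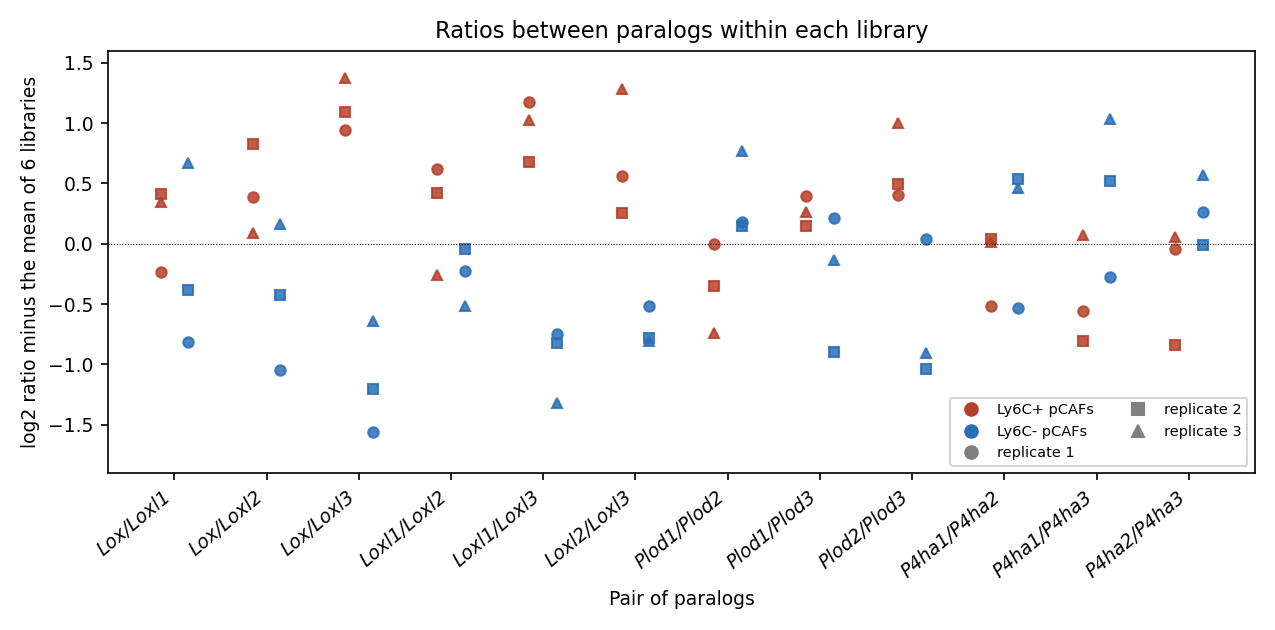
Log2 ratio between the paralogs of each of 12 pairs in each library, after subtracting the mean over the 6 libraries, with Ly6C+ pCAFs in red, Ly6C- pCAFs in blue and a marker shape per replicate number. The red and blue points separate for Lox/Loxl3, Loxl1/Loxl3, Loxl2/Loxl3, Plod1/Plod2 and Plod2/Plod3, and none of the prolyl 4-hydroxylase pairs separates.

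Genes that act around these enzymes were read from lists by role, and their counts stand beside the 17.1% of all tested genes. Of 5 tested genes that cleave procollagen propeptides or enhance that cleavage, 3 were higher in Ly6C+ pCAFs, none lower and 2 did not pass (median log2 fold change 0.73). The N-propeptidase gene Adamts2 stood at 386 ± 84.6 against 162 ± 20.5 (limma adjusted p = 0.00119). The C-proteinase enhancer genes Pcolce, at 3143 ± 459 against 1882 ± 86.7 (0.0114), and Pcolce2, at 393 ± 93.4 against 110.0 ± 53.0 (0.00150), were higher as well. Bmp1, which encodes the C-proteinase that also cleaves the lysyl oxidase proenzyme, had means of 2740 and 2281 and did not pass (0.524).

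Partners and copper supply of lysyl oxidase included 2 of 8 tested genes that rose, 1 that fell and 5 short of the threshold. Efemp2, fibulin-4, which binds lysyl oxidase to the elastic fibre, was higher in Ly6C+ pCAFs, with means of 1527 ± 256 and 877 ± 33.4 (limma adjusted p = 0.00698), as was the copper transporter family gene Slc31a2 (34.6 ± 10.1 against 16.0 ± 3.93; 0.0379). Fmod, fibromodulin, a collagen-binding proteoglycan that guides crosslinking, was lower (149 ± 73.8 against 388 ± 117; 0.0103). Of 10 tested substrates, 2 rose, 1 fell and 7 missed the threshold. The elastin gene Eln (1535.5 ± 204 against 799 ± 188; limma adjusted p = 0.00714) and Col3a1 (0.00852) were higher, and Col27a1 was lower (199.8 ± 8.21 against 313 ± 21.2; 0.0141), in Ly6C+ pCAFs.

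None of 10 tested collagen chaperone and export genes passed, with adjusted p-values of 0.0774 or more and the lowest for Fkbp10, which encodes a chaperone of collagen lysyl hydroxylation (1062 ± 88.7 against 1444 ± 113). In the prolyl 3-hydroxylation complex P3h1 was lower in the Ly6C+ group (493 ± 20.3 against 714 ± 84.8; limma adjusted p = 0.0396) and 4 others did not pass. None of 3 other tested crosslinking genes passed, and each had its lower level in Ly6C+ pCAFs. They were Qsox1 (393 ± 25.2 against 543 ± 63.6; limma adjusted p = 0.0752), Pxdn (346 ± 37.2 against 477 ± 75.2; 0.111) and the transglutaminase gene Tgm2 (287 ± 9.78 against 383 ± 59.0; 0.141). Their ranges were apart, as were those of 16.1% of all tested genes in that direction. Colgalt1, which adds galactose to hydroxylysine, had means of 449.8 ± 66.3 and 421 ± 30.1 and did not pass either (0.794). Of P4hb and 4 related 4-hydroxylases, P4htm rose (26.1 ± 6.08 against 8.19 ± 4.42; limma adjusted p = 0.0154), the oxygen sensor gene Egln3 fell (8.04 ± 3.38 against 52.0 ± 9.50; 0.000306), and 3 missed the threshold.

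Of 5 tested genes of ascorbate uptake and recycling, 4 were lower in Ly6C+ pCAFs, none higher and 1 did not pass. The members that fell act on more than ascorbate. Slc2a3 and Slc2a1 are glucose transporters that can also carry dehydroascorbate, and stood at 10.4 ± 2.98 against 77.6 ± 14.3 and 334 ± 60.8 against 676 ± 193 (limma adjusted p = 5.27e-05 and 0.00940). Gsto1 (154 ± 45.8 against 405 ± 77.7; 0.00146) and Glrx (54.5 ± 1.03 against 105 ± 16.8; 0.00654) encode a glutathione transferase and a glutaredoxin. Slc23a2, the ascorbate transporter proper, had means of 24.6 ± 4.16 and 20.9 ± 2.14 and did not pass (0.651). Of 19 tested targets of hypoxia-inducible factors other than the enzymes, 8 were lower, 2 higher and 9 did not pass (median log2 fold change −0.73). Egln3 and Slc2a1 stand on this list as well as on those above. The angiogenic factor gene Vegfa was lower (355 ± 29.5 against 1052 ± 64.8; limma adjusted p = 4.07e-05), and Adm, which encodes the vasodilator peptide adrenomedullin, was higher (409 ± 182 against 86.2 ± 38.3; 0.000794), in Ly6C+ pCAFs. Lox, Loxl2, Plod2, P4ha1 and P4ha2, which are known targets too, had log2 fold changes of 0.91, 0.034, 0.79, −0.38 and −0.075.

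**Figure D4:**
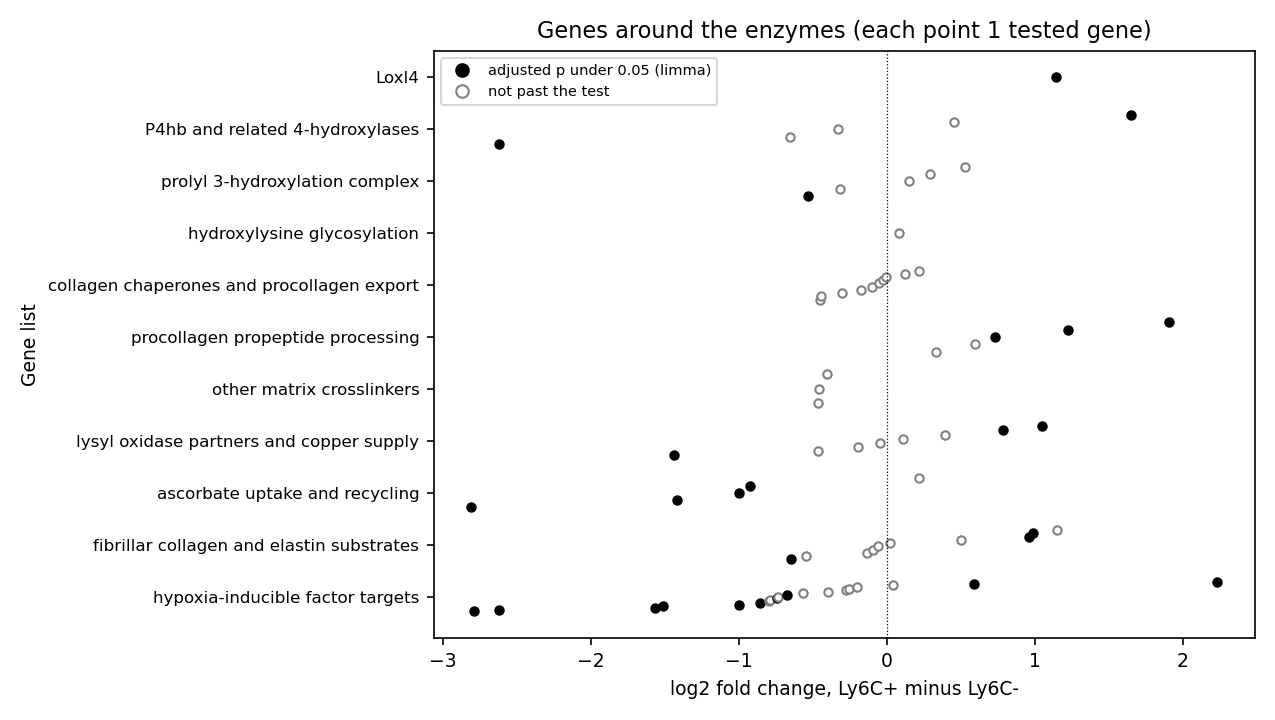
Log2 fold change, Ly6C+ minus Ly6C- pCAFs, of each tested gene in the lists around the enzymes, with black points past limma's test at an adjusted p under 0.05 and grey open points not past it. The points of propeptide processing that passed lie right of 0, 4 of 5 ascorbate genes lie left of 0 in black, and all 10 chaperone and export genes are open.

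The genes whose profile over the 6 libraries was most like that of Loxl3, by the root mean square difference of centred log2(value + 1), were Tceal5 (0.0953), the protease inhibitor gene Serpine2 (0.101) and Notch3 (0.115), a Notch receptor gene that is also on the mural marker list. Serpine2 had 253, 322 and 209 normalised counts in the Ly6C+ libraries, against 597, 803 and 834 in Ly6C- replicates 1 to 3. For Lox they were Snhg3 (0.118), Lysmd4 (0.135) and Stk3 (0.138), with group means between 3.98 and 14.9, none of which passed the test.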

How the data were processed

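The deposited table holds signal values named by the authors as normalised counts, that is gene counts after division by a size factor for each library. The submitters' processing notes name bcl2fastq, STAR 2.4.2a, HTSeq and mm10. How size factors were found, which annotation and strand setting were used and whether genes were filtered is not given in the sources used here. All values were whole multiples of 1 step per library (100% within 0.001), which gave whole reads.

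Genes with a mean of at least 5 were tested with limma 3.58.1 (R 4.3.3, mean-variance trend, no block) on log2(value + 1). Alternatives were the pseudocount, filter, scaling, prior, replicate block, each library left out, edgeR 4.0.16 and DESeq2 1.42.0 on recovered reads, and the threshold. The pipeline was tested on simulated data. All 10 genes are named, with up to 4 members per list by smallest p, others to complete a count, and the 3 nearest profiles of the extreme called genes. Colgalt1, P4hb, Bmp1, Slc23a2 and Tgm2 were named for their roles. Members and lists were chosen with earlier results of these data known. Coordinates are from GENCODE M21, promoters from RefSeq.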

Additional observations from a re-analysis of the deposited data

How the results depend on the processing

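The direction of Lox, Loxl1, Loxl3, Plod2, Plod3, P4ha1 and P4ha3 was the same in all alternatives run. The sign of genes near 0 changed: Loxl2 and Plod1 had log2 fold changes of −0.029 and −0.021 after quantile normalization and of −0.16 and −0.14 with library totals. With 1 library left out, the range was −0.089 to 0.11 for Loxl2 (below 0 without Ly6C+ replicate 3), −0.14 to 0.26 for Plod1 (below 0 without Ly6C- replicate 2) and −0.21 to 0.094 for P4ha2 (above 0 without Ly6C+ replicate 2 or Ly6C- replicate 3). Of 10 enzyme genes, 2 passed in the analysis reported. The number was 1 with no filter and with no mean-variance trend, beside 12.7% and 14.3% of the genes tested there. It was also 1 at an adjusted p under 0.01, where 959 of 9646 genes passed. In DESeq2 it was 4, beside 16.1% of all genes. At an adjusted p under 0.1 it was 6, where 2150 of 9646 genes passed. It was 1 to 2 with 1 library left out, over which 1121 to 1728 of all genes passed against 1647. The causes were not tested.

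With the replicate block 5 enzyme genes passed in limma (Lox, Loxl1, Loxl3, Plod2 and Plod3) and 5 in edgeR (P4ha3 in place of Plod2), beside 21.6% and 21.9% of all genes. The numbers do not pair the libraries by the labels. The correlation of deviations was 0.129, 0.0518 and 0.167 for equal numbers, and each library correlated best with its own number, a hint from the data only. Paralog ratios did not overlap for 5 to 9 of 12 pairs with 1 library left out, where fewer libraries make overlap rarer. The share of all gene pairs was not computed with a library left out, so this range has no background beside it. P4ha1 had the fewest reads of the 10 genes and the widest interval. No group had 4 libraries, so single libraries were not screened as outliers.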
